A study of Mus musculus with 16 samples.

Results

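The regions described here are the OCT4 peaks at 8 primitive endoderm genes (Gata4, Gata6, Sox17, Sox7, Foxa2, Pdgfra, Dab2 and Hnf4a) in mouse embryonic stem (ES) cells. A peak was taken if its midpoint lay inside the body of 1 of these genes or within 50 kb of any of its annotated transcript starts. The rule found 15 of the 26704 OCT4 peaks. It used positions only, so the number of peaks per gene, their place relative to other genes and their sequence are open to description. The peaks come from chromatin immunoprecipitation followed by sequencing (ChIP-seq) with an OCT4 antibody in 2TS22C cells, an ES cell line whose own Sox2 genes are inactive and whose SOX2 comes from a transgene that doxycycline (dox) shuts off. The series holds 16 libraries in 8 groups of 2: OCT4, BRG1 (a chromatin remodeler subunit) and H3K27ac (a histone acetylation mark) in 2TS22C cells left untreated (SOX2 ON) or given dox (SOX2 OFF) and collected at 26 h, and H3K27ac in ZHBTc4 cells, where dox instead shuts off OCT4, untreated or treated for 24 h. Every group was cultured in serum with LIF and 2 kinase inhibitors. The OCT4 list merges peaks of the 4 OCT4 libraries or some of them, and which ones is not stated. It gives coordinates alone, with no height, read count or library, so SOX2 OFF could not be compared with SOX2 ON at these genes, no error between replicates can be given, and the depth behind a peak is unknown. A gene without a peak cannot be told from one whose peak missed the calling threshold. Expression was not measured in these files, so the ES cell label cannot be checked from marker levels.

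The primitive endoderm is the layer of the blastocyst that faces its cavity and later forms the endoderm of the yolk sac, while ES cells stand for its neighbor, the epiblast. Both arise from the inner cell mass, where signaling by fibroblast growth factor through the MAP kinases favors the primitive endoderm. GATA6 acts early in this choice, PDGFRA marks the cells that take it, and GATA4, SOX17, SOX7, FOXA2, HNF4A and the adaptor DAB2 belong to the endoderm program that follows. OCT4 partners with SOX2 in ES cells on a composite motif in which the octamer ATTTGCAT is followed directly by the SOX site AACAATG. OCT4 can also pair with SOX17, itself an endoderm factor, on a compressed form in which the octamer is followed by ACAATG, with 1 base less between the sites.

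The sequences that the results turn on are those around the octamer and its partner sites, and the peaks next to a gene start. The peak upstream of Sox7 held the only exact octamer of the 15 peaks. Its 300 bases at chr14:63936389-63936688 follow, with the octamer, which reads on the minus strand, and a GATA site (AGATAA) in capitals. The closer of the Foxa2 peaks past the end of the gene (chr2:148040794-148041006) had a pair of SOX sites (CCATTGT, once on each strand), in capitals. The peak in an intron of Hnf4a (chr2:163511044-163511309) is shown for a forkhead site (TGTTTAC), in capitals, and the peak just upstream of the Hnf4a start (chr2:163506527-163506750) because it was the only one within 1 kb of the most upstream start of its gene and held none of the 7 motifs searched. The 150 bases from the upstream Pdgfra peak (chr5:75137413-75137562) carry a compressed match in capitals. The 75 bases near Dab2 (chr15:6473378-6473452) come from a peak that lay just outside the 50 kb window and are shown for their composite match, on the minus strand, in capitals. All are read 5′ to 3′ on the plus strand of GRCm38 from the RefSeq genome.
Sox7 upstream peak: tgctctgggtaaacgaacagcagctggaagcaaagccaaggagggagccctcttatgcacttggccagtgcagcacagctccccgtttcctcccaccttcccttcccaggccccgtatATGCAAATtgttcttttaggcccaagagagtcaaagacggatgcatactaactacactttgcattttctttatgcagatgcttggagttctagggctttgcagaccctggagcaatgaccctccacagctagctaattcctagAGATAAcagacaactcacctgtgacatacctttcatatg
Foxa2 peak past the gene end: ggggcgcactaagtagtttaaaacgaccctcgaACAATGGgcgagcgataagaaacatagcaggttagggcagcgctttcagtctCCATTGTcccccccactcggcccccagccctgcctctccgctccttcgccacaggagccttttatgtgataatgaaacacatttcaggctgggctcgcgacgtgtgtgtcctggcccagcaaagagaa
Hnf4a internal peak: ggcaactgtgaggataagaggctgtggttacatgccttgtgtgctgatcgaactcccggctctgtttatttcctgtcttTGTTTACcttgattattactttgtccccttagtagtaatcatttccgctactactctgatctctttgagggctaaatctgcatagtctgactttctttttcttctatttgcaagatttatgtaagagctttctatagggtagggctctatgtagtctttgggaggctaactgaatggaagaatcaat
Hnf4a peak just upstream of the start: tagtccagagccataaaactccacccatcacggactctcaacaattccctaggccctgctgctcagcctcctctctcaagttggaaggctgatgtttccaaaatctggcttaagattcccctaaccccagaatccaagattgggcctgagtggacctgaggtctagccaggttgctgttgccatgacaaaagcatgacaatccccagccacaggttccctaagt
Pdgfra upstream peak: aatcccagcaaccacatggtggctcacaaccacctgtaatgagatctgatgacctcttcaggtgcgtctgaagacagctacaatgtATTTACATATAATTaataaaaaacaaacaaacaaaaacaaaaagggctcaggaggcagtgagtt
Dab2 peak outside the window: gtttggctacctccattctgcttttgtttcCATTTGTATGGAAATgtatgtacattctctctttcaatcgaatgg

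Of the 8 genes, 6 had an OCT4 peak, against 73% of all 21938 protein-coding genes under the same rule. Gata6, Foxa2, Pdgfra and Hnf4a had 3 peaks each, Sox7 had 2, Sox17 had 1, and Gata4 and Dab2 had none. The median was 2.5 peaks per gene, beside 2 over all protein-coding genes. Summed over the windows, the 8 genes had 1.43 peaks per 100 kb and all protein-coding genes 1.47. Both values were thus close to those over all genes. A count of 3 or more was reached by 31.1% of protein-coding genes, and of 2 or more by 50.2%.

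**Figure D1:**
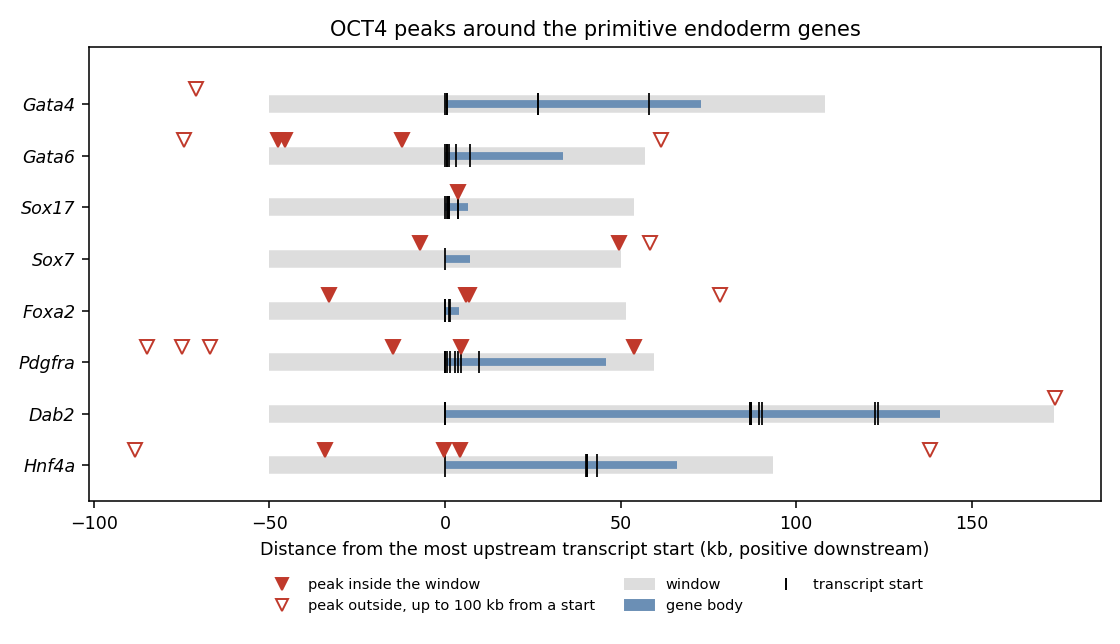
Position of each OCT4 peak (triangles) along the 8 genes, in kb from the most upstream transcript start of the gene, with positive values downstream. Filled triangles are the 15 peaks inside the windows (gray bars) and open triangles the 11 peaks farther out, up to 100 kb from a start. Gata4 and Dab2 have no filled triangle, and at Dab2 the open triangle touches the end of the window.

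The genes without a peak were those with the longest stretch of sequence searched. Gata4, on the minus strand at chr14:63198922-63271692, and Dab2, at chr15:6299788-6440712, had the largest windows of the 8 (158 kb and 223 kb) and no peak. Among protein-coding genes whose window was within 10% of theirs, 84.5% and 86.8% had at least 1 peak. For the smaller windows of the other genes the same share ran from 66.4% (Sox7) and 66.7% (Foxa2) over 67.4% (Sox17), 67.9% (Gata6) and 68.3% (Pdgfra) to 83.6% (Hnf4a). The peak nearest to a Gata4 start was 70.8 kb away, and 20.7% of protein-coding genes were at least as far from a peak. For Dab2 the distance was 50.3 kb, which 27.7% of genes matched or exceeded.

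**Figure D2:**
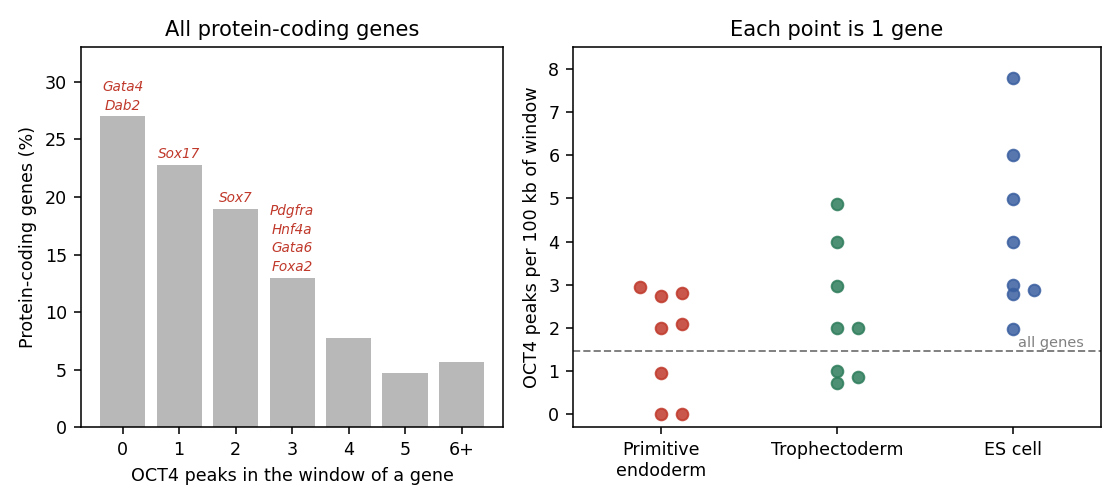
Left, share of all 21938 protein-coding genes (%) with each number of OCT4 peaks in the window, with the primitive endoderm genes written above their count. Right, peaks per 100 kb of window for each gene of 3 lists (points), with the value over all protein-coding genes as a dashed line at 1.47. The primitive endoderm genes lie between 0 and 2.96, and the ES cell genes between 1.99 and 7.78.

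GATA4 and GATA6 are zinc finger factors of the same family, and their genes differed in the list. Gata6, on the plus strand at chr18:11052064-11085635, had 3 peaks, all upstream of its starts and none in its body, while Gata4 had none. A pair of Gata6 peaks lay close together, at chr18:11004193-11004603 and chr18:11006399-11006716, 47.7 and 45.5 kb upstream and 2.16 kb from each other. The third, at chr18:11039561-11040086, was 12.2 kb upstream. All 3 lay in introns of 1010001N08Rik, a non-coding gene next to Gata6. The far pair each held the GATA core, with a SOX core in the more distant peak as well, and the near peak held none of the motifs.

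SOX17 and SOX7 are HMG box factors of the same SOX group. Sox17, on the minus strand at chr1:4490931-4497354, had 1 peak of 205 bp at chr1:4493531-4493735, the narrowest of the 15. It lay in the 5′ UTR of a short Sox17 transcript, with its midpoint 0.029 kb from an internal start and 3.72 kb downstream of the most upstream one. The next OCT4 peak was 105 kb away, the longest such distance among the 15. Sox7, on the plus strand at chr14:63943673-63950732, had an intergenic peak of 395 bp at chr14:63936341-63936735, which was 7.14 kb upstream and is the one printed with its octamer. Its other peak, at chr14:63993033-63993348, lay 49.5 kb downstream in an intron of Rp1l1, only 0.685 kb from the start of that gene and just inside the window.

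FOXA2 and HNF4A are a forkhead factor and a nuclear receptor of endoderm. Foxa2, on the minus strand at chr2:148042877-148046969, had a pair of peaks past its end and 1 upstream. The pair, at chr2:148040794-148041006 and chr2:148039886-148040448, lay 4.56 and 5.30 kb downstream of the nearest start with 0.733 kb between their midpoints, and the farther of them fell on an exon of the lincRNA 9030622O22Rik. Both held the SOX core, with 2 matches in the closer peak and 1 in the farther. The intergenic peak at chr2:148079868-148080214 was 33.1 kb upstream and held none of the motifs.

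Hnf4a, on the plus strand at chr2:163506808-163572910, was the only one of the 8 whose most upstream start had a peak closer than 1 kb. This peak, at chr2:163506527-163506750, was centered 0.170 kb upstream in an intron of the antisense gene Hnf4aos. A second, at chr2:163511044-163511309, lay 4.37 kb downstream of the start in an intron of Hnf4a. The third, at chr2:163472430-163472709, was 34.2 kb upstream and fell on a coding exon of Fitm2, 0.0595 kb from the Fitm2 start. This makes it a peak at the promoter of a neighbor by position, and it is counted here because the rule takes any peak in the window.

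Pdgfra encodes the receptor for platelet-derived growth factor and Dab2 an endocytic adaptor. Pdgfra, on the plus strand at chr5:75152292-75198215, had peaks on both sides and in its body. The upstream peak at chr5:75137268-75137706 was 14.8 kb away in an intron of the lincRNA Gm19583. The internal peak at chr5:75156736-75157169 lay in 5′ UTR sequence 0.120 kb from an internal start and 4.66 kb from the most upstream one. The third, at chr5:75205724-75206330, was the widest of the 15 at 607 bp and lay 44.2 kb downstream of the nearest start. At Dab2 the closest peak was at chr15:6473252-6473709, in an intron of the complement gene C9, 50.3 kb from the nearest Dab2 start and so just outside the window.

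The 15 peaks were 205 to 607 bp wide, with a median of 347 bp beside 352 bp for all OCT4 peaks. Of them, 9 lay upstream and 6 downstream of the nearest start of their gene, 7 were within 10 kb of it and 6 over 30 kb away. A start of any protein-coding gene lay within 1 kb of 5 peaks (33.3%, 95% Wilson interval 15.2% to 58.3%), beside 13.8% of all OCT4 peaks. The rule itself raises this share. All 3674 OCT4 peaks that near a start lay in the window of a protein-coding gene, as did only 20672 of the 26704 peaks. The share over peaks in such windows was thus above 13.8%. For 3 of the 5 peaks, at Sox17, Pdgfra and Hnf4a, the start was one of the primitive endoderm gene itself, an internal one at Sox17 and Pdgfra. The other 2 were near the starts of Rp1l1 and Fitm2. For 13 of the 15 peaks the nearest protein-coding start belonged to the primitive endoderm gene, the exceptions being these 2 peaks. The Wilson intervals cover counting error over regions only.

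By annotation, 7 peaks were in introns (45.5% of all OCT4 peaks), 4 intergenic (46.1%) and 2 in 5′ UTRs (2.21%). A coding exon held 1 (1.53%) and a non-coding exon 1 (3.26%). The shares in brackets are over all OCT4 peaks, which include peaks far from any gene that the rule leaves out. The midpoint of 8 of the 15 peaks lay inside a long non-coding gene, against 9.25% of all OCT4 peaks and 7.8% of the 20672 peaks in the window of a protein-coding gene. This comparison was chosen after the positions had been seen. The 8 were the 3 peaks in 1010001N08Rik, the Foxa2 peak in 9030622O22Rik, the Pdgfra peak in Gm19583, and the 3 Hnf4a peaks, which overlapped 2310001K24Rik or Hnf4aos. They fall in only 5 non-coding genes, so they are not 8 separate cases. The list says nothing on transcription of these genes.

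No peak held a composite match, counted with up to 3 mismatches over its 15 bases. With 0 of 15, the 95% Wilson interval reaches 20.4%, and 11.5% of all OCT4 peaks held one. The compressed form was matched, also with up to 3 mismatches, in 2 of 15 peaks beside 6.94% of all, and the exact octamer in 1 beside 11% of all. The 2 compressed matches were in the upstream peaks of Sox7 and Pdgfra. In the Sox7 peak the compressed match and the octamer are the same bases in part, since the octamer is its first piece. That octamer is exact, so all 3 mismatches of the match fell in its 6-base SOX part. In windows of equal width 5 kb to each side of every peak, the composite was found in 1.86%, the compressed form in 4.88% and the octamer in 2.45%. For all 3, the interval of the 15 peaks included the share of all OCT4 peaks. The interval treats the 15 peaks as separate draws, although several share a gene and some lie in close pairs. A difference was therefore not tested.

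The sites that came closest to the composite had 4 mismatches, in 4 of 15 peaks, of which 3 are shown and the other is the most distant Gata6 peak. Up to 4 mismatches were found in 35.9% of all OCT4 peaks, up to 5 in 9 of 15 and 73.9%, and up to 6 in 13 of 15 and 95.6%. The peaks next to the Fitm2 start and at Sox17 had no site with fewer than 8 mismatches. In the sites that follow, with the 3-mismatch site from outside the Dab2 window for comparison, bases equal to the composite are in capitals and the first 8 letters are the octamer piece. At Sox7 the octamer piece was equal at 7 of 8 bases, and at the downstream Pdgfra peak the SOX piece at 6 of 7.
Sox7 upstream peak, minus strand, chr14:63936679-63936693: gTTTGCATAtgAAaG
Foxa2 upstream peak, minus strand, chr2:148080059-148080073: ATTatCATAAtAATa
Pdgfra downstream peak, plus strand, chr5:75206014-75206028: tTTTGagTAACAATa
Dab2 peak outside the window, minus strand, chr15:6473408-6473422: ATTTcCATAcaAATG

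**Figure D3:**
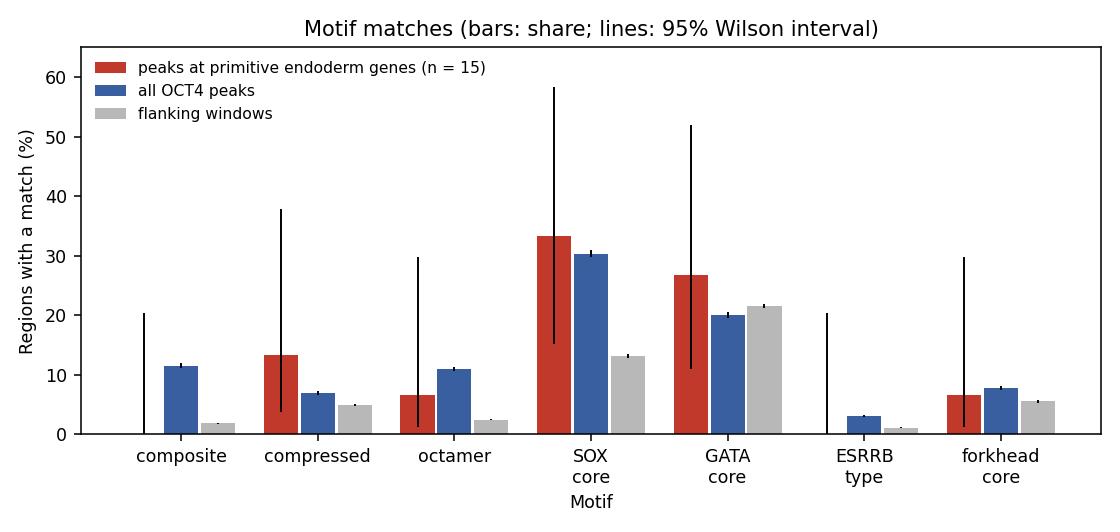
Share of regions (%) with a match to each of 7 motifs, for the 15 peaks at primitive endoderm genes, all 26704 OCT4 peaks and flanking windows, with 95% Wilson intervals as lines. The intervals of the 15 peaks are wide and include the share of all OCT4 peaks for every motif.

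The other motifs were searched as exact letters on both strands. The SOX core, CCATTGT or CCTTTGT, was in 5 of 15 peaks (33.3%, interval 15.2% to 58.3%) beside 30.3% of all OCT4 peaks and 13.2% of flanking windows. The 5 were the most distant Gata6 peak, the upstream Sox7 peak, the close pair at Foxa2 and the upstream Pdgfra peak. The GATA core AGATAA was in 4 of 15 peaks (26.7%, interval 10.9% to 52.0%), beside 20% of all peaks and 21.6% of flanking windows. It occurred in the far pair at Gata6, in the upstream Sox7 peak and, with 2 matches, in the upstream Pdgfra peak. TCAAGGTCA, a site of the ESRRB type, was in none of the 15 and in 3.08% of all peaks. The forkhead core TGTTTAC was in 1 of 15 and in 7.8% of all.

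**Figure D4:**
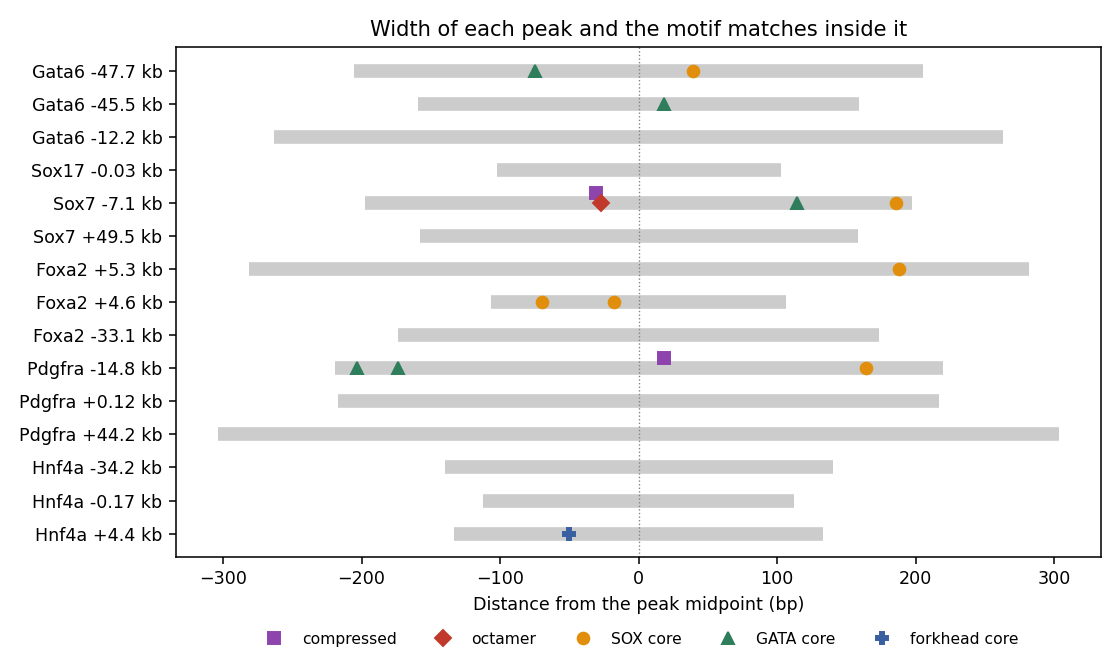
Width of each of the 15 peaks (gray bars, bp from the midpoint, along the plus strand) and the places of the motif matches in it, with the distance of the peak from the nearest start of its gene at left. Matches fall in 7 peaks, and the upstream peaks of Sox7 and Pdgfra carry the most kinds.

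Matches of any kind fell in 7 peaks and 8 held none of the 7 motifs. The same share over all OCT4 peaks was not computed, so these counts describe the 15 peaks without a comparison. The upstream Sox7 peak combined the compressed form, the octamer inside it, the SOX core and the GATA core. The upstream Pdgfra peak combined the compressed form, SOX core and GATA core, and was also the only one of the 15 with over 50% repeat-masked bases, at 68.1%. Among all OCT4 peaks, 15.6% passed that share. Whether the matches in the Pdgfra peak, its compressed match included, fell on masked bases was not determined. A match is a description of the letters and not evidence of a bound site, and a missing match says only that the letters were not in the peak.

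In base composition most peaks resembled the whole list, with a median of 47.5% G and C beside 46.4% and of 1.13 CpG per 100 bp beside 1.06. A group of 4 stood apart, with over 5 CpG per 100 bp. These were the peak on Fitm2 (10.7 per 100 bp, 70.7% G and C), the Sox17 peak (8.29, 68.3%) and the close pair at Foxa2 (5.63, 55.9% and 5.33, 53.6%). Values at least as high as that of the Foxa2 pair were seen in 5.55% and 6.01% of all OCT4 peaks, and as that of the Sox17 peak in 2.4%. For the Fitm2 peak the share was 0.977%. These shares are over all OCT4 peaks, while the rule favors peaks near a start, where the Fitm2 and Sox17 peaks lay. The share among peaks in gene windows was not computed. The peak just upstream of the Hnf4a start, which ends before the start itself, was at the other end, with 0.446 CpG per 100 bp, the lowest of the 15.

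**Figure D5:**
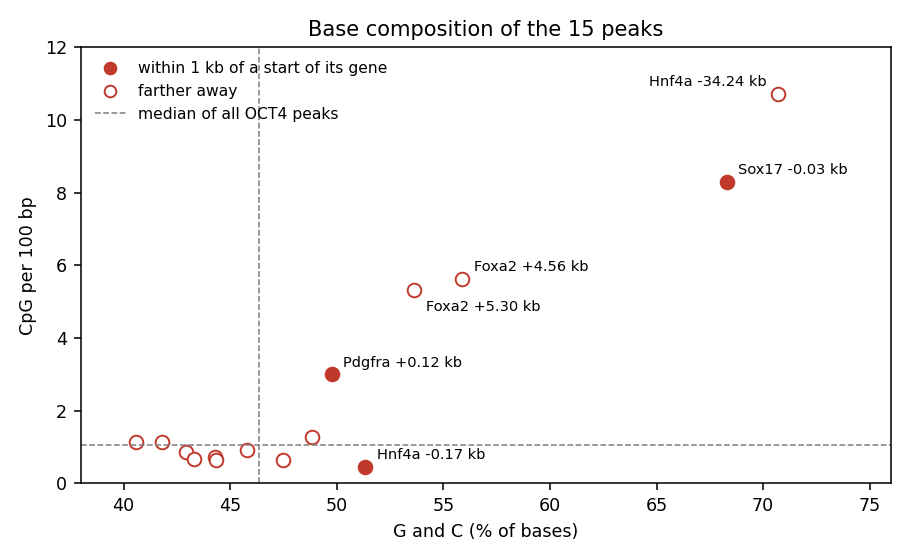
CpG per 100 bp against the share of G and C (%) in each of the 15 peaks, with the medians of all OCT4 peaks as dashed lines. Filled points are the 3 peaks within 1 kb of a start of their gene, and the peaks on Fitm2 and at Sox17 sit highest, at 10.7 and 8.29 CpG per 100 bp.

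Against genes of other early lineages, the primitive endoderm genes had fewer peaks than the ES cell genes by description. The 8 ES cell genes (Pou5f1, Sox2, Nanog, Klf4, Esrrb, Zfp42, Tfcp2l1 and Prdm14) all had peaks, 38 in total, with a median of 4.5 per gene (range 2 to 8) and 3.98 per 100 kb. Their range and that of the primitive endoderm genes, 0 to 3, overlap at 2 and 3 peaks, where Klf4, Tfcp2l1 and Prdm14 lie. The 8 trophectoderm genes (Cdx2, Eomes, Gata3, Elf5, Tfap2c, Krt8, Krt18 and Hand1), which belong to the outer layer of the blastocyst, all had peaks too, with a median of 2 (range 1 to 5) and 2.22 per 100 kb. This rate counts a peak once for each gene whose window holds it, which gave 19 counts from 18 different peaks. A composite match was in 8 of the 38 peaks at ES cell genes (21.1%), in 0 of 18 at trophectoderm genes and in 0 of 15 here. No test was made of these differences, since the gene lists were chosen with earlier results known.

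Of 20 further genes of the extraembryonic endoderm (basement membrane proteins, endocytic receptors, secreted proteins and components of FGF signaling), 16 had a peak (80%), with a median of 2 per gene. Over all protein-coding genes, 73% had a peak and the median was also 2. Amn, a partner of the endocytic receptor cubilin, the secreted proteins Afp and Ttr, and the transcriptional regulator Cited1 had none. Fgfr2 had 50 peaks in a window of 3055 kb, which a single long gene model sets, and at 1.64 per 100 kb it was near the value for all genes. Lrp2, Fgfr1 and Fgf4 came next with 6 each. Fgf4, the growth factor that ES cells make, had 5.26 per 100 kb, the highest of the 20, and Fgfr1, which encodes a receptor for it, had 3.84. A composite match was in 10 of the 97 different peaks of these genes (10.3%), beside 11.5% of all. Of the 97, 50 came from the Fgfr2 window, so this share leans on that 1 region.

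Beyond 50 kb and up to 100 kb from a start lay 11 more peaks. Besides the Dab2 peak in C9, which had a composite and a compressed match, 2 SOX cores and 2 GATA cores, a composite match was in 1 peak on the Hnf4a side, 0.615 kb from the start of Oser1. The others belonged to the surroundings of Gata4 (1, in an intron of Gm5463), Gata6 (2), Sox7 (1, in Rp1l1), Foxa2 (1, in 9030622O22Rik), Pdgfra (3, all nearest to Gsx2) and Hnf4a (1, on Serinc3). Just inside the limit were the Sox7 peak at 49.5 kb and the Gata6 peak at 47.7 kb, and just outside it the Dab2 peak at 50.3 kb and a Gata6 peak at 54.4 kb.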

How the data were processed

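OCT4 ChIP-seq reads were aligned to mm10 by the authors with STAR 2.6.1c, duplicates were removed with Picard, peaks were called with MACS2 2.1.1.20160309 and peak files were merged with bedtools (tools and versions from the submitters' processing notes and the study's methods). What the authors deposited is a list of merged peaks by coordinates in bp (chromosome, first and last base), without a score or count. Whether replicates were pooled before calling is not given in the sources used here. Merging joins overlapping peaks, so a width is that of a union. The list still holds 1 peak over 5 kb, 38168 bp wide. By the study's methods, peaks of that size and those overlapping input peaks or blacklisted regions were removed, so the list may precede these filters, and the 26704 peaks, the 15 included, may hold regions that they would have taken out. This was not tested.

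Coordinates, given 1-based, were checked against GRCm38 and annotated with GENCODE M21 (Python 3.11.15, pysam 0.24.0). Each midpoint was given the first class that applied: 5′ UTR, then coding exon, then 3′ UTR, then non-coding exon, then intron, and otherwise intergenic. Motifs were searched in whole peaks on both strands, and in flanking windows free of peaks. The scripts were tested on simulated data. Every peak of the 8 genes is given, and another gene is named if its protein-coding start is the nearest to a peak, if it hosts one, or by its rank in the endoderm list. The members and the gene lists were chosen with earlier results of these data known. No p-value was computed, because the list has no values per library. BRG1 and H3K27ac were not analysed here. Alternatives varied the window, the starts, the peak width, the mismatches and the part of the peak searched.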

Additional observations from a re-analysis of the deposited data

How the results depend on the processing

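The count of 15 peaks became 7 within 10 kb, 9 within 25 kb and 26 within 100 kb of a start, and was 10 to 15 under the other alternatives. Genes with a peak numbered 4 with peaks of at least 300 bp (60.3% of all genes), where Sox17 and Hnf4a dropped out, 5 within 10 kb (44.3%) and 8 within 100 kb (85.7%), where Gata4 and Dab2 gained 1 each, and 6 otherwise. The rate stayed at 1.41 to 1.48 per 100 kb. Composite matches rose from 0 to 4 with up to 4 mismatches (35.9% of all peaks) and were 0 with up to 2, in the central 200 bp and in peaks of at least 300 bp. Compressed matches fell to 0 with up to 2 mismatches (0.79% of all). The octamer with up to 1 mismatch was in 8 peaks (53.5% of all). In the central 200 bp the SOX core was in 2 peaks (20.5% of all) and the GATA core in 2 (11.3% of all). Over peaks of at least 300 bp, the median width was 422.5 bp, beside 429 bp for all such peaks. Each of these alternatives changes the regions or letters admitted. Limiting starts to those of protein-coding transcripts, chosen after seeing the data, gave 15 peaks at 6 genes.

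No paired analysis was possible because libraries have no columns of their own among the coordinates, and leaving out a replicate was not run for that reason.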
